A study of Mus musculus with 8 samples.

Results

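The genes described here are the RUNX transcription factor family, its binding partner and the related ETO corepressors. They are Runx1, Runx2, Runx3, Cbfb, Runx1t1, Cbfa2t2 and Cbfa2t3, 7 of the 17016 genes with a symbol on the array. Their probes were found by matching each probe's RefSeq accession to a symbol, and no measured value entered the choice. This gave 14 of the 41174 non-control probes. Runx2 had 4 probes, Runx3, Cbfb, Cbfa2t2 and Cbfa2t3 had 2 each, and Runx1 and Runx1t1 had 1 each.

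Messenger RNA was profiled on 8 one-colour arrays of haematopoietic stem and progenitor cells (HSPCs) that were taken from bone marrow. The 4 donor mice were Runx1 Δ/Δ, of mixed C57Bl/6 and 129SvJ strain. From each mouse, 1 culture received a retroviral Pcgf1 shRNA and 1 a control shRNA, after lineage depletion and 2 days with SCF, Flt3 ligand, IL-11 and IL-3, and both were selected with puromycin for 36 h. Pcgf1 belongs to the Polycomb complex PRC1.1, which represses genes by ubiquitinating histone H2A. All 8 cultures carry the Runx1 deletion, so the comparison is between the 2 shRNAs within Runx1 Δ/Δ cells, and no array here holds cells with intact Runx1. The sources used here name neither the Cre that made the deletion, nor the deleted exons, nor the ages of the mice. Each group rests on 4 arrays. That number limits the precision of every value.

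Core binding factor is a pair of proteins. The alpha subunit, encoded by Runx1, Runx2 or Runx3, binds DNA through the Runt domain, and the beta subunit, encoded by Cbfb, does not bind DNA itself but strengthens that binding. Runx1 is required for the first blood stem cells of the embryo and for platelet and lymphoid development in the adult. Runx2 is best known for bone formation and Runx3 for T cells and natural killer cells. Runx1t1 (ETO), Cbfa2t2 (MTGR1) and Cbfa2t3 (ETO2) encode corepressors that bind other transcription factors. The human counterparts of Runx1t1 and Cbfa2t3 are fused to RUNX1 in leukaemias, and Cbfa2t3 works with the GATA and TAL1 factors in red cell and platelet precursors.

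RUNX proteins recognise DNA that holds TGTGGT. The longer form AACCACA, which is TGTGGTT on the other strand, was searched on both strands of the RefSeq promoters (assembly GRCm38.p6), each running from 250 bases before to 50 bases after a transcription start. It occurred in 5.27% of 32851 promoters. Of 9 listed promoters of 6 of these genes it occurred in 3, the upstream one of the listed starts of Runx1, the listed start of Runx2 and the upstream start of Runx3. In all 3 it occurred as a tandem pair with 1 base in between. That pair was found in 5 of the 32851 promoters, and the other 2 belonged to Gm16225 and Olfr24. These 3 promoters are shown because the 3 RUNX genes share this feature and were measured side by side, with each AACCACA in capitals.
Runx1, chr16:92826025-92826324, minus strand: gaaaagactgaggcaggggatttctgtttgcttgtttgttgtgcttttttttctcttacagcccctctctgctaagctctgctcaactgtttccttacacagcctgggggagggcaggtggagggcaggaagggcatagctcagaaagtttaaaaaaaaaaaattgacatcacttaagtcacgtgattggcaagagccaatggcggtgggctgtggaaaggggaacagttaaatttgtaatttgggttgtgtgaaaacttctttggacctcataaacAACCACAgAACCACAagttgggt
Runx2, chr17:44814578-44814877, minus strand: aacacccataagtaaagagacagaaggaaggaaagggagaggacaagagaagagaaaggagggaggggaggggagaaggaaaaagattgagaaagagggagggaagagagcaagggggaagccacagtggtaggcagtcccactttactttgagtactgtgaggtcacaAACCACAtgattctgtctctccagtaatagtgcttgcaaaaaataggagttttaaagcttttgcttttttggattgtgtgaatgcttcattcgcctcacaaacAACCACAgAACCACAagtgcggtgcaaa
Runx3, chr4:135120395-135120694, plus strand: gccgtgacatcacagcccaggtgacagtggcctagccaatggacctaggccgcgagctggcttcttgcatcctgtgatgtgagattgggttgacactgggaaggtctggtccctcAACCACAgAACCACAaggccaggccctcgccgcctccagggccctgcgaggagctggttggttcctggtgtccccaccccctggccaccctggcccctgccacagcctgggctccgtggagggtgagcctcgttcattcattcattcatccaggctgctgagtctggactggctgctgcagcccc
With the first transcribed base counted as 1, the pair begins at 28 and 36 in Runx1, at 23 and 31 in Runx2 and at −135 and −127 in Runx3. Runx2 holds a further copy at −81. The longest run shared by the Runx1 and Runx2 promoters had 22 bases, aaacAACCACAgAACCACAagt, and contained the pair. Runx3 shared a run of 18 bases with each of them, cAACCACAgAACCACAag. A match describes the letters only and does not show binding.

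Mice 1 and 2 shared slide 1, and mice 3 and 4 shared slide 2. Each slide held both groups and was scanned as 1 batch. Between 54.8% and 62.0% of the non-control spots of an array were well above background and 0 were saturated. The Pcgf1 transcript, measured by 1 probe, averaged −1.59 ± 0.17 with the Pcgf1 shRNA and −0.23 ± 0.18 with the control shRNA (normalized log2 signal, SD, n = 4 each), so 39.0% remained (limma adjusted p 0.0188). With 1 mouse left out the log2 change was −1.38 to −1.34, and the adjusted p was 0.107 without mouse 1, 0.335 without mouse 2, 0.0907 without mouse 3 and 0.0165 without mouse 4. Normalized log2 signal means the log2 of the background-subtracted intensity minus that of the array's 75th percentile, so 0 is the 75th percentile. All 12 HSPC markers looked for, among them Kit, Cd34 and Flt3, were well above background on all 8 arrays.

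The 6 tested probes of the 3 RUNX genes read higher with the Pcgf1 shRNA in every mouse, by 1.14-fold to 1.30-fold on average, but none passed the test over all probes. Testing required a signal well above background throughout 1 of the groups. Of the 14 probes 12 met this, and each of them was above background on all 8 arrays. A probe was called at an adjusted p under 0.05 (limma, Benjamini-Hochberg over 22736 probes), and 0 of the 12 were called, while 0.629% of all probes were. At an unadjusted p under 0.05 there were 3 of the 12, both brighter Runx2 probes and the brighter Runx3 probe, against 12.1% of all probes. All 3 were higher with the Pcgf1 shRNA, which held at that p for 6.76% of all probes. With mouse as a block, which compares the 2 cultures of each animal, 1 of the 12 was called (the brightest Runx2 probe, higher with the Pcgf1 shRNA, adjusted p 0.0496). The block called 4.97% of all probes, 2.70% as higher and 2.27% as lower. All 6 tested probes of Runx1, Runx2 and Runx3 were higher in 4 of 4 mice, a pattern found in 15.6% of all tested probes. Probes of 1 gene share its transcript, so these 6 are not 6 separate observations.

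Runx1, the DNA-binding subunit whose gene was deleted in these mice, still gave signal on every array. Its probe A_51_P206585 read 1.00, 0.88, 1.21 and 0.81 in mice 1 to 4 with the Pcgf1 shRNA. In the control shRNA cultures of the same mice it read 0.94, 0.50, 0.82 and 0.54. The control culture of mouse 1 stood above the Pcgf1 shRNA cultures of mice 2 and 4, so the groups overlapped. As intensities before scaling these were 1090 to 1666 with the Pcgf1 shRNA and 734 to 1214 with the control shRNA, on arrays whose 75th percentile lay between 519 and 854. The mean was 0.97 ± 0.18 with the Pcgf1 shRNA and 0.70 ± 0.22 with the control shRNA (SD, n = 4 each). The log2 change was 0.27 (95% confidence interval −0.03 to 0.58, limma adjusted p 0.476, 0.125 with mouse as a block). Mouse 1 contributed the smallest difference (0.06) and mouse 3 the largest (0.39). The place of the probe relative to the deleted exons is not known here, so its signal says nothing about whether functional transcript remained.

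Runx2, the bone and cartilage regulator of the family, was called with mouse as a block and missed the threshold without it. Its brightest probe, A_51_P230942, was printed 10 times on each array, so it also shows how closely a single array measures 1 transcript. It read 0.32, 0.47, 0.54 and 0.39 in mice 1 to 4 with the Pcgf1 shRNA. With the control shRNA it read 0.01, 0.04, 0.29 and −0.02. The lowest Pcgf1 shRNA culture (mouse 1) stood above the highest control culture (mouse 3), so the groups did not overlap. The log2 change was 0.35 (95% confidence interval 0.13 to 0.57, 1.28-fold, limma adjusted p 0.184). Under the mouse block the interval was 0.18 to 0.52 and the adjusted p 0.0496. The 10 spots on an array differed with an SD of 0.03 to 0.06 on the log2 scale. That spread is of the array alone and leaves out differences between cultures. The within-mouse differences were 0.26 to 0.43. Leaving out any 1 mouse kept the change between 0.33 and 0.38 but moved the adjusted p with the block to 0.0960 to 0.263, so the call rested on all 4 mice.

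The other Runx2 probes matched the same RefSeq transcript. A_52_P415319 read −0.38, −0.23, −0.04 and −0.22 with the Pcgf1 shRNA in mice 1 to 4. It read −0.54, −0.81, −0.33 and −0.72 with the control shRNA. Here the control culture of mouse 3 was above the Pcgf1 shRNA culture of mouse 1, and the log2 change was 0.38 (95% confidence interval 0.10 to 0.67, limma adjusted p 0.266, 0.0760 with mouse as a block). Across the 8 arrays it followed the 10-spot probe with a Pearson r of 0.94. A_52_P460545 was dim, at intensities of 45.2 to 60.9 with the Pcgf1 shRNA and 28.9 to 50.1 with the control shRNA, where the lowest intensity called well above background on an array was 9.39 to 14.9. Its log2 change was 0.23 (95% confidence interval −0.27 to 0.72, limma adjusted p 0.729), and mouse 4 gave 0.68 against 0.05 to 0.12 in the other 3 mice. The fourth probe, A_52_P55876, was not well above background on any array.

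Runx3, known for its part in T cell and natural killer cell development, was measured by a pair of probes that stood apart to different degrees. The brighter one, A_52_P666059, read −0.26, −0.32, −0.20 and −0.41 in mice 1 to 4 with the Pcgf1 shRNA. In the control cultures it read −0.53, −0.70, −0.83 and −0.55. The groups did not overlap, as for the 10-spot Runx2 probe; these 2 of 6 RUNX gene probes compare with 4.27% of all tested probes whose Pcgf1 shRNA values all lay above the control values. The log2 change was 0.35 (95% confidence interval 0.13 to 0.57, 1.28-fold, limma adjusted p 0.182, 0.0997 with mouse as a block). Mouse 3 gave the largest difference (0.63) and mouse 4 the smallest (0.14). The dimmer probe, A_51_P494992, read −1.54, −1.69, −1.66 and −1.92 with the Pcgf1 shRNA. It read −1.76, −1.93, −1.81 and −2.07 with the control shRNA. The groups overlapped, with mouse 4 the lowest of each, while the within-mouse differences were even, 0.15 to 0.24. The change on this probe was 0.19 (95% confidence interval −0.06 to 0.44, limma adjusted p 0.560, 0.166 with mouse as a block).

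**Figure D1:**
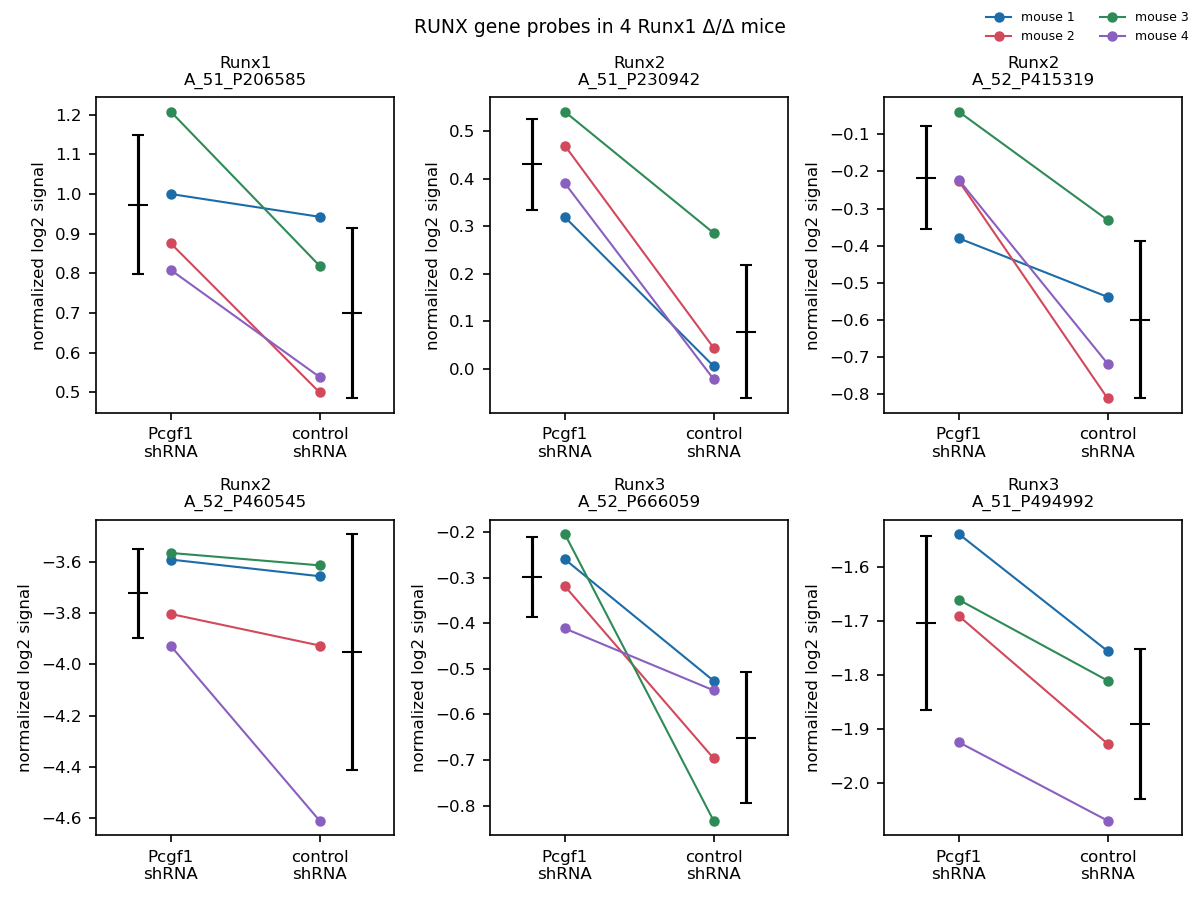
Normalized log2 signal (y axis; 0 is the array's 75th percentile) of the 6 tested probes of Runx1, Runx2 and Runx3 in the Pcgf1 shRNA and control shRNA cultures. Lines join the cultures of 1 mouse, black bars give mean and SD (n = 4), and every line is higher on the Pcgf1 shRNA side, although the groups stay apart only for Runx2 A_51_P230942 and Runx3 A_52_P666059.

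The 6 tested RUNX gene probes were higher in 4 of 4 mice, so both slide means had to be positive. They are given for their size only. The mean within-mouse difference was 0.22 (slide 1) and 0.33 (slide 2) for Runx1, 0.37 and 0.33 for the 10-spot Runx2 probe, and 0.32 and 0.38 for the brighter Runx3 probe. The cell type markers also differed between the groups. The summed linear signal of 10 mature neutrophil markers, in multiples of the 75th percentile, was 12.0 to 45.5 with the Pcgf1 shRNA and 85.2 to 234 with the control shRNA, lower in 4 of 4 mice, with Mmp9 and Retnlg above background on no array. With mouse as a block 6 of the 8 tested fell and 1, Cxcr2, rose, while without the block 1 fell. Ltf and Ngp, among the 6, were above background on only 4 of the 8 arrays. They passed the filter only through the control group, where they were higher, so their falls are not separate support. The summed signal of the 12 HSPC markers was 61.7 to 75.3 with the Pcgf1 shRNA and 52.0 to 56.7 with the control shRNA. It was higher in 4 of 4 mice. Its members differed in direction, with a median log2 change of 0.03: under the block Cd34 (0.94) and Meis1 (0.79) rose and Ly6a (−0.68) fell. Without the block 1 of the 12 HSPC markers passed, as higher. The 8 tested monocyte and macrophage markers had a median of −0.49 and a sum that was lower in 4 of 4 mice, and Ccr2 and Klf4 were among those that fell under the block. The sum of the endothelial markers was higher in 4 of 4 mice. It was 1.60 to 2.15 with the Pcgf1 shRNA and 1.05 to 1.61 with the control shRNA. Of these 6 markers 4 were tested, and Pecam1 and Tie1 rose under the block. Kdr changed the other way (log2 change −0.53, not past the threshold), and Cdh5 was above background on no array. The sum of the B cell markers was lower in 4 of 4 mice. It was 1.91 to 2.14 with the Pcgf1 shRNA and 2.35 to 2.89 with the control shRNA. None of the 5 tested passed, and Vpreb1 changed the other way (log2 change 0.39). Ebf1 and Pax5 were above background on no array. The part of these shifts in the RUNX values was not tested, and in such bulk samples fewer cells of a type and less RNA per cell cannot be told apart. Markers of the tissues in which Runx2 and Runx3 are best known were also summed. For 10 osteoblast and stromal markers the sum was 0.714 to 0.942 with the Pcgf1 shRNA and 0.643 to 0.815 with the control shRNA, higher in 4 of 4 mice, with Ibsp, Alpl, Pdgfra and Lepr above background on no array. Only 3 of the 10 were tested, and they did not move together: with mouse as a block Pdgfrb rose (log2 change 0.69, limma adjusted p 0.0199), while the log2 change was −0.25 for Sp7 and −0.34 for Col1a2, neither past the threshold. For 11 T and NK cell markers the sum was 3.72 to 4.76 with the Pcgf1 shRNA and 3.45 to 5.53 with the control shRNA. It was higher in 2 of 4 mice, with Cd3g, Cd8a, Prf1 and Ncr1 above background on no array. Of the 6 tested, Lck rose with and without the block (log2 change 0.91). The others had log2 changes from −0.99 to −0.01, and none of them passed.

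Cbfb, the shared beta subunit, did not pass on either probe. The brighter probe A_51_P300216 read 4.51, 4.35, 4.51 and 4.13 with the Pcgf1 shRNA and 4.26, 4.25, 4.44 and 3.95 with the control shRNA in mice 1 to 4. It was higher in 4 of 4 mice and the groups overlapped, with mouse 4 the lowest of each group. The log2 change was 0.15 (95% confidence interval −0.15 to 0.45, limma adjusted p 0.709, 0.276 with mouse as a block). A_52_P586157, the dimmer probe, read −0.55, −0.32, −0.46 and −0.81 with the Pcgf1 shRNA and −0.76, −0.28, −0.59 and −0.65 with the control shRNA. It was higher in 2 mice and lower in 2, with a change of 0.04 (95% confidence interval −0.28 to 0.35, limma adjusted p 0.948).

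The ETO family genes Cbfa2t2 and Cbfa2t3 had 4 tested probes, and none passed with or without mouse as a block. Cbfa2t2 was the most even of the genes. Its probe A_52_P632567 read 1.58, 1.55, 1.61 and 1.54 with the Pcgf1 shRNA and 1.60, 1.59, 1.70 and 1.74 with the control shRNA. It was lower in 4 of 4 mice, but only by 0.02 to 0.19, and the groups overlapped (log2 change −0.09, 95% confidence interval −0.25 to 0.08, limma adjusted p 0.685). The other probe, A_52_P279712, averaged −1.91 ± 0.04 with the Pcgf1 shRNA and −1.92 ± 0.07 with the control shRNA (SD, n = 4 each). Its change was 0.01, with an interval of −0.16 to 0.17.

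Cbfa2t3, the ETO protein of red cell and platelet precursors, differed more between mice than between shRNAs. On the brighter probe, A_51_P380750, the Pcgf1 shRNA cultures of mice 1 to 4 read 2.90, 2.82, 2.96 and 3.30. The control cultures read 2.76, 2.83, 2.83 and 3.27. Mouse 4 stood above every other mouse in both groups, and so it did on the other probe, A_52_P13802, with 2.18 for the Pcgf1 shRNA and 2.11 for the control shRNA against 1.63 to 1.81 and 1.56 to 1.64 in the other mice. The SD between the mouse means was 0.22 and 0.25 on the 2 probes, while the mean within-mouse difference was 0.07 and 0.12. The SD of those differences was 0.07 and 0.06. An SD between mouse means above the mean difference was not particular to Cbfa2t3. It was also found for the Cbfb probes (0.19 against 0.15 and 0.19 against 0.04), Runx2 A_52_P460545 and Cbfa2t2 A_52_P279712. The log2 changes were 0.07 and 0.12 (95% confidence intervals −0.26 to 0.41 and −0.25 to 0.49; limma adjusted p 0.886 and 0.816, and 0.574 and 0.343 with mouse as a block). The summed signal of 7 erythroid markers was 46.5 to 177 with the Pcgf1 shRNA and 112 to 243 with the control shRNA, and was higher with the Pcgf1 shRNA in 1 of 4 mice.

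Runx1t1, the ETO gene itself, was above background on 1 array. Its probe A_52_P612137 was at background intensities of 2.57 to 3.31 in all 4 Pcgf1 shRNA cultures. The control cultures of mice 1 to 3 read 2.17 to 3.25, and that of mouse 4 read 85.1. With 0 of 4 and 1 of 4 arrays above background no fold is given, and the probe was not tested.

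**Figure D2:**
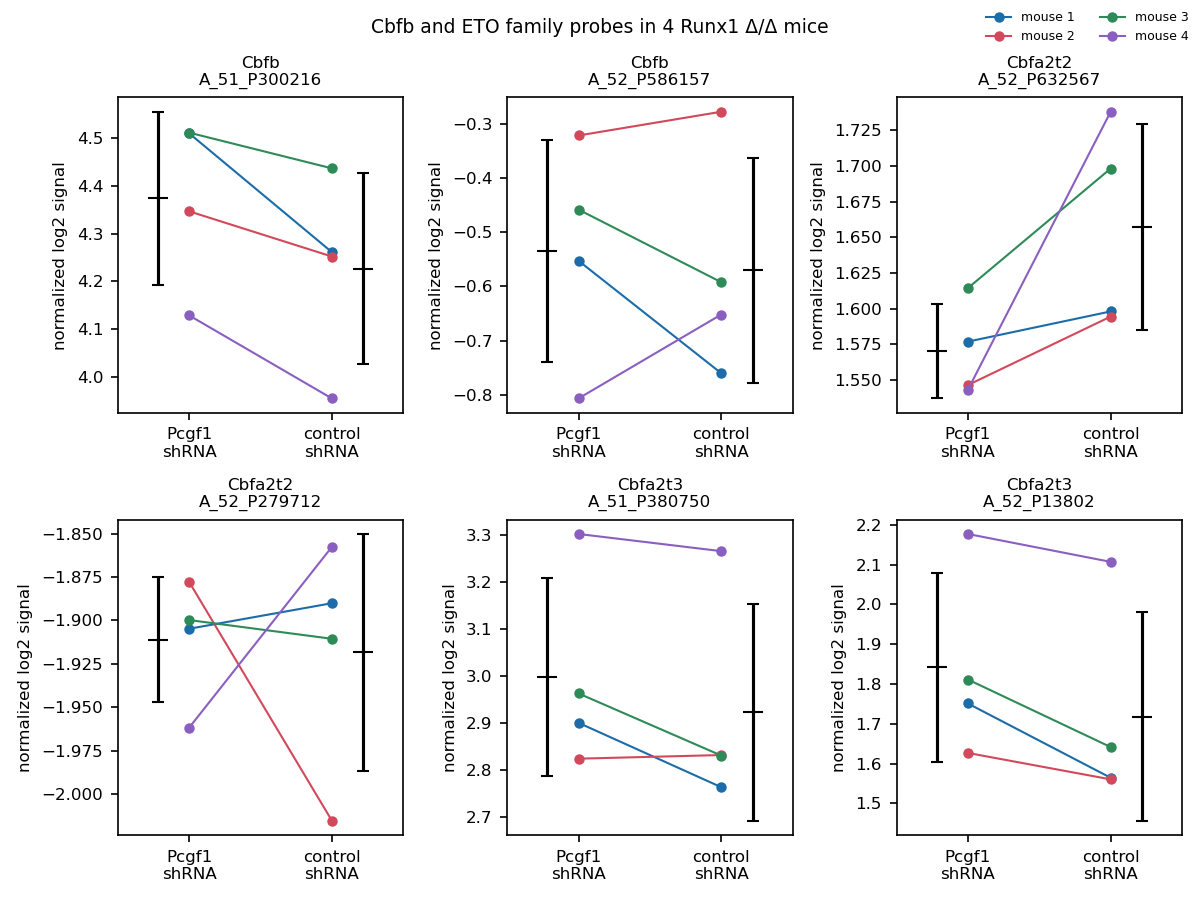
Normalized log2 signal (y axis) of the 6 tested probes of Cbfb, Cbfa2t2 and Cbfa2t3 in the Pcgf1 shRNA and control shRNA cultures of 4 mice. Lines join the cultures of 1 mouse and black bars give mean and SD (n = 4); both Cbfa2t3 probes set mouse 4 above the other mice in both groups.

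The 12 tested probes had a median log2 change of 0.17, beside 0.01 over all tested probes. In the plot of the changes and their intervals the RUNX gene probes lie between 0.19 and 0.38, the Cbfb probes at 0.15 and 0.04, and the ETO family probes between −0.09 and 0.12. Intervals of the groups of genes overlap, and differences between the genes in their change were not tested.

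**Figure D3:**
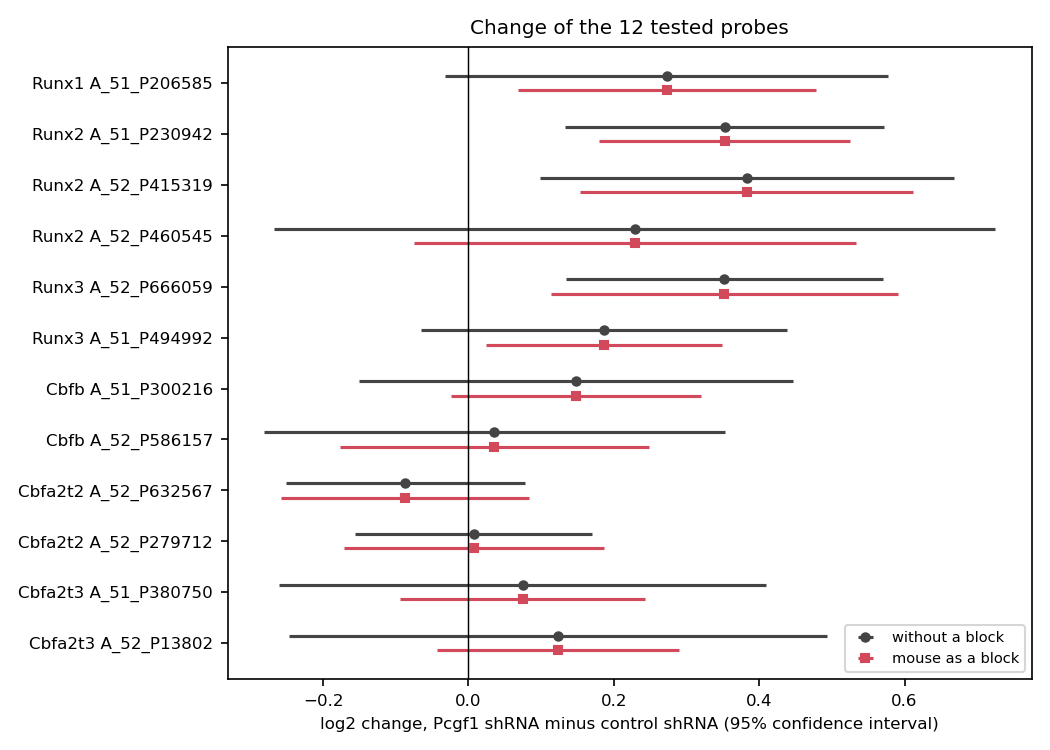
Log2 change (x axis, Pcgf1 shRNA minus control shRNA) of the 12 tested probes with 95% confidence intervals, without a block (circles) and with mouse as a block (squares). Without a block the intervals of 2 Runx2 probes and 1 Runx3 probe lie above 0; the intervals do not account for the number of probes tested.

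Genes of known partners and targets of core binding factor were counted in 4 lists. In these 0 genes passed without a block (limma). An unadjusted p under 0.05 was found for 0 of 16 RUNX cofactors and corepressors, 2 of 11 ETO-type partners, 6 of 18 blood transcription factors and 3 of 22 textbook targets, beside 12.1% of all probes. With mouse as a block these counts were 0 of 16, 2 of 11, 10 of 18 and 8 of 22, beside 23.2% of all probes. With mouse as a block 0 of 16 RUNX cofactors and corepressors passed, 1 of 11 ETO-type partners fell, 3 of 18 blood transcription factors that act with Runx1 rose and 1 fell, and 1 of 22 textbook RUNX targets rose. The shares called with the block were 0%, 9.09%, 22.2% and 4.55%, beside 4.97% of all probes. List medians of the log2 change were 0.00, −0.02, 0.06 and −0.04, beside 0.01 over all probes. The lists were chosen with earlier results of these data known. Of the tested genes Cebpa, Spi1 and Nfe2 each stand in 2 of them. The textbook target that rose with the block was Cebpa, which is also counted among the blood factors that rose.

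Among the RUNX cofactors, the smallest p values without a block belonged to Cdk6, a cell cycle kinase that binds Runx1 (log2 change 0.19, limma adjusted p 0.460), Tle4, a Groucho corepressor (−0.11, adjusted p 0.586), and Hdac3, a histone deacetylase (−0.11, adjusted p 0.650). The ETO-type partner that fell with mouse as a block was Bcl6, a transcriptional repressor of B cells and myeloid cells. It averaged −0.41 ± 0.44 with the Pcgf1 shRNA and 0.24 ± 0.28 with the control shRNA (SD, n = 4 each) and was lower in 4 of 4 mice, by 0.65 on the log2 scale (limma adjusted p 0.304 without the block, 0.0351 with it).

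The blood factors that rose with mouse as a block were Cebpa, Gfi1 and Meis1. Cebpa, a master regulator of the granulocyte lineage, averaged 2.02 ± 0.35 with the Pcgf1 shRNA and 1.33 ± 0.27 with the control shRNA (log2 change 0.70, limma adjusted p 0.202 without the block, and 0.0204 with it). Gfi1, a repressor that acts in stem cells and neutrophil precursors, averaged 2.33 ± 0.43 with the Pcgf1 shRNA and 1.55 ± 0.16 with the control shRNA (0.79, limma adjusted p 0.153, 0.0316 with the block). Meis1, a Hox cofactor of early progenitors, averaged −1.59 ± 0.43 with the Pcgf1 shRNA and −2.38 ± 0.47 with the control shRNA (0.79, limma adjusted p 0.298, 0.0307 with the block). Gfi1b, the Gfi1 paralogue of red cell and platelet precursors, fell with the block and averaged 3.34 ± 0.76 with the Pcgf1 shRNA and 4.12 ± 0.66 with the control shRNA (−0.78, limma adjusted p 0.533, 0.0418 with the block). Each of the 4 moved the same way in 4 of 4 mice. These values are of the brightest probe, and Cebpa and Meis1 each had 1 other tested probe that is not described here.

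**Figure D4:**
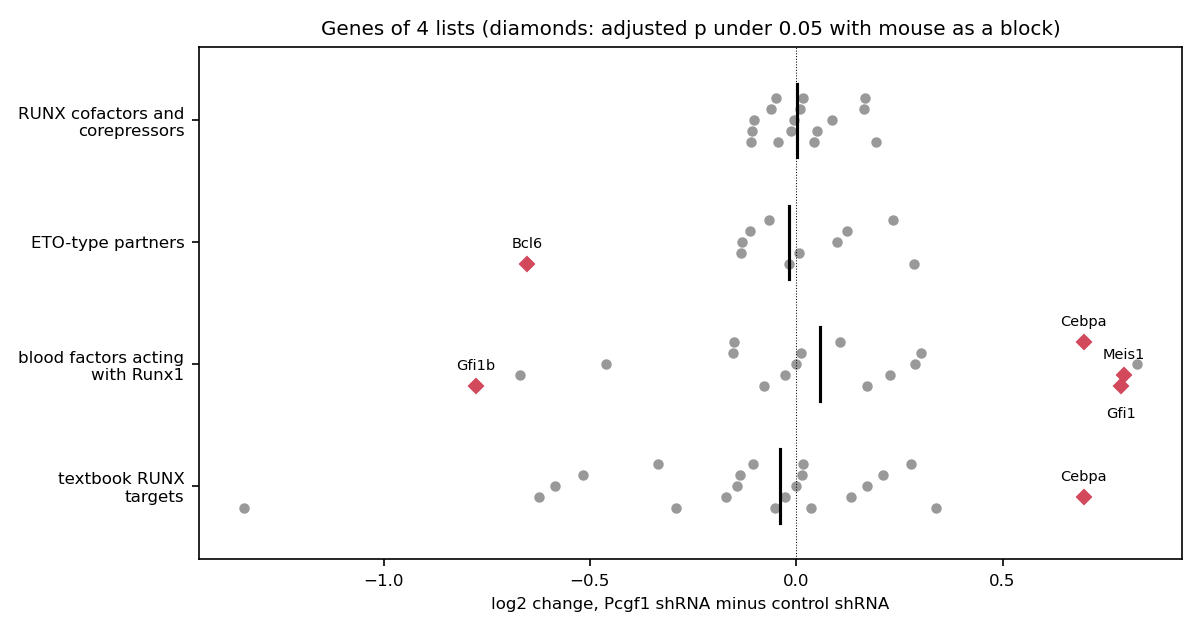
Log2 change (x axis, Pcgf1 shRNA minus control shRNA) of each tested gene of 4 lists, one row per list, with the list median as a black bar. Diamonds mark genes with an adjusted p under 0.05 with mouse as a block, Bcl6 and Gfi1b to the left and Cebpa, Gfi1 and Meis1 to the right; no gene passed without the block.

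The genes whose pattern over the 8 arrays was most like that of each gene were taken from 11713 other genes with a symbol. The 8 arrays come from 4 mice and share slides and shRNAs, so these values are descriptions. For Runx1 they were Dennd5a (Pearson r 0.98), Fads1 (0.97) and Glyr1 (0.97). For Runx2 they included Ppp1r9a (0.97) and Mcts2 (0.97). For Runx3 they were Amigo1 (0.97), Cfap20 (0.97) and Lck (0.97), a tyrosine kinase of T cells whose log2 change was 0.91 (limma adjusted p 0.0281 with mouse as a block). Lck is also 1 of the T and NK cell markers, and no other tested marker of that list rose. Cbfb was most like Gnpnat1 (0.97), Nuak2 (0.97) and Arhgap27 (0.97), Cbfa2t2 most like Tnp1 (0.93), Lrtm2 (0.93) and Cxcr3 (0.93), and Cbfa2t3 most like Pole (0.98), Armcx1 (0.98) and Kmt5c (0.97). An r of at least 0.9 was reached by 168 genes for Runx1, 73 for Runx2, 119 for Runx3, 219 for Cbfb, 6 for Cbfa2t2 and 161 for Cbfa2t3, so high values over 8 arrays were common.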

How the data were processed

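Agilent Feature Extraction 10.1 is named in the submitters' processing notes. The deposited spot files give, per the file headers, a background-subtracted intensity of each spot with no normalization between arrays. The log2 values in the authors' deposited table are centred on each probe's median over the 8 arrays. Column differences matched those of the spot files (r of 1.00, slope 1.00), so scale and direction are known, while its between-array step is not stated. Its column medians in mice 1 to 4 were 0.10, −0.05, −0.11 and −0.20 with the Pcgf1 shRNA and 0.05, 0.11, 0.10 and −0.13 with the control shRNA. Results rest on the spot files.

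The log2 intensity was shifted so that each array's 75th percentile of non-control spots was 0. The 881 spot values marked as non-uniform or population outliers were left out, and spots of 1 probe were averaged. Probes not well above background throughout either group were left untested, leaving 22736 of 41174. Symbols came from RefSeq accessions (GRCm38.p6), for 24375 probes. The test was limma (version 3.58.1, R 4.3.3) by lmFit and eBayes, two-sided, at an adjusted p of 0.05 over all probes. It was checked on simulated data without the block. Those data had independent noise and no mouse effect, so they do not bear on the choice of block. A gene in a list stands by its brightest tested probe. The fit with mouse as a block is given beside it: cultures of the same number come from the same animal, per the labels, and correlated within a mouse with r of 0.41 to 0.65. Alternatives covered the block, slide, scaling, background, filter, probe choice, the authors' table and leaving out each mouse. The genes, lists and naming rule (all probes of the 7 genes, Pcgf1, list genes that passed or had the smallest p, and the 3 most similar genes) were chosen with earlier results of these data known. One of the similar genes and one of the markers are not reported here.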

Additional observations from a re-analysis of the deposited data

Results flagged for a closer look

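In groups of 4 values, a culture was marked when its gap to the nearest other value took up more of the group's range than Dixon's 95% critical value. Of 42 groups checked 6 were marked, and all 6 concerned mouse 4. Chance gives about 1 in 20 for separate groups. The groups here share values and transcripts, so the count cannot be set against that share. In Cbfa2t3 the control culture of mouse 4 stood apart on both probes, at 3.27 on A_51_P380750 and 2.11 on A_52_P13802. The Runx1t1 probe stood at −3.05 in the control culture of mouse 4, and the difference within that mouse was −4.99. The Runx2 probe A_52_P460545 gave a difference of 0.68 in mouse 4. The Runx2 probe A_52_P55876, not well above background on any array, stood at −6.71 in the Pcgf1 shRNA culture of mouse 4.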

How the results depend on the processing

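Of 198 alternative values of the 12 tested probes, 190 kept their direction and their side of the threshold. With the same arrays and scaling, a block or a filter leaves a probe's log2 change as it was. The direction could not change there, so part of this count was fixed in advance. The brightest Runx2 probe was called with mouse as a block, the replicate block (0.35, adjusted p 0.0496), and with array weights, chosen after seeing the data (0.36, adjusted p 0.0307), as was the brighter Runx3 probe with array weights (0.37, adjusted p 0.0261). The count of called member probes was therefore 1 with the block and 2 with array weights, and 0 with every mouse left out. Values near 0 changed sign: Cbfb A_52_P586157 was −0.022 to 0.099 with 1 mouse left out (−0.022 without mouse 1, with and without the block), and Cbfa2t2 A_52_P279712 was −0.014 with normexp and −0.036 to 0.044 with 1 mouse left out (−0.036 without mouse 2, with and without the block); the cause was not tested. Over all probes 143 were called, against 1130 with mouse as a block, 1965 with array weights and 3 without the filter on dim probes, and 0 to 354 with 1 mouse left out (1 without mouse 1, 1 without mouse 2, 354 without mouse 4, and 0 without mouse 3, where limma gave 1416 at an unadjusted p of 0.05). With the block the counts without mice 1 to 4 were 357, 1, 361 and 62. In the lists 5 genes were called with the block and 2 without mouse 4 (Cebpa and Gfi1), and 0 with any other mouse left out. The block changed no other call among the probes of the 7 genes. The Pcgf1 call was also lost without the filter on dim probes (adjusted p 0.0755) and, with the block, without mouse 2 (0.0976).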
